A study of Homo sapiens with 10 samples.

Results

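The 10 genes described here belong to the BCL2 family, which controls the mitochondrial pathway of apoptosis. With earlier results of these data known, they were taken from the series by name. They are the anti-apoptotic genes BCL2, BCL2L1 (encoding BCL-XL) and MCL1, the pore-forming effectors BAX and BAK1, and the BH3-only genes BID, BAD, BBC3 (PUMA), PMAIP1 (NOXA) and BCL2L11 (BIM). The count tables hold 61533 genes, of which 16181 had enough counts to be tested, and each of the 10 genes was among them. RNA was sequenced from 5 libraries of the cisplatin-sensitive T24, an established line from a human bladder carcinoma, and from 5 libraries of T24R2, a line derived from T24 by serial exposure to cisplatin. Libraries of both lines were labelled day 3 of culture. Both lines were labelled as grown in RPMI with serum and antibiotics, while the study's methods keep T24R2 in cisplatin, so the line and the presence of drug cannot be told apart here. T24R2 is 1 derived line, and nothing in the labels says that the 5 replicates were separate cultures, so p-values measure the spread between these libraries, which may be technical.

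Anti-apoptotic family proteins hold the effectors BAX and BAK1 in check at the mitochondrial outer membrane. BH3-only proteins report damage or stress by binding the anti-apoptotic proteins, and some of them also switch on the effectors directly. Once active, BAX and BAK1 open pores that release cytochrome c, which builds the apoptosome with APAF1 and activates caspase-9.

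Family members meet through the BH3 motif, a short helix with a conserved leucine and, further on, a small residue followed by aspartate. The coding stretches of this motif are shown for the 6 members whose mRNA changed between the lines, since this is the element that the pro-apoptotic proteins insert into the groove of the anti-apoptotic ones. Each run is 27 bases on the coding strand of the Ensembl canonical transcript of GENCODE release 44 (hg38), with the leucine codon and the codons of the small residue and aspartate in capitals.

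BCL2: CTCcgccaggccGGCGACgacttctcc
BCL2L1: CTGagggaggcaGGCGACgagtttgaa
BAK1: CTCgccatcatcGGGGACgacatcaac
BID: CTCgcccaggtcGGGGACagcatggac
BBC3: CTGcggcggatgGCGGACgacctcaac
PMAIP1: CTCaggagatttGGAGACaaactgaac

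The BCL2 stretch lies at chr18:63318352-63318378 (minus strand, codons 97 to 105, exon 2 of 3) and that of BCL2L1 at chr20:31721925-31721951 (minus strand, codons 90 to 98, exon 2 of 3). The BAK1 stretch is at chr6:33575390-33575416 (minus strand, exon 4 of 6), that of BID at chr22:17739418-17739444 (minus strand, exon 4 of 6) and that of BBC3 at chr19:47226582-47226608 (minus strand, exon 3 of 4). PMAIP1 encodes the shortest of the 10 proteins, with 54 codons, and its motif takes codons 29 to 37 at chr18:59902673-59902699 (plus strand, exon 2 of 2). The search for the motif required an aspartate codon at its sixth position, which is GAC in 9 of the 10 members and GAT in 1, MCL1. The search allowed glycine, alanine or serine before the aspartate. A glycine codon stands there in 8 of the 10, and BAD and BBC3 have another codon. Over the whole stretch, these codons included, the 45 pairs of members share between 11 and 19 of the 27 bases (median 15).

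Of the 10 members, 6 changed between the lines. BCL2 was the 1 member called higher in T24R2, and BCL2L1, BAK1, BID, BBC3 and PMAIP1 (5 members) were called lower. MCL1, BAX, BAD and BCL2L11 (4 members) were not called. The lower members thus held 1 anti-apoptotic gene, 1 of the 2 effectors and 3 of the 5 BH3-only genes. Calls came from edgeR's quasi-likelihood test over all tested genes and needed both an adjusted p-value below 0.05 and a log2 fold change beyond 0.5 in either direction. Calls were common between these lines, as 51.4% of all tested genes were called, 24.9% higher and 26.5% lower. The count of members is to be read against those shares. In 7 of the 10 members the 5 T24R2 libraries lay entirely above or below the 5 T24 libraries, which was also the case for 61.2% of all tested genes. These are bulk libraries of 1 cell line each, so a change in the share of cells that express a gene and a change in RNA per cell cannot be told apart.

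Libraries held 9257843 to 10840954 fragment counts, and levels are given as CPM (counts relative to the library total after TMM scaling) or, to compare genes, as RPKM (CPM per kilobase of exon). TMM factors were 0.936 to 0.951 in T24 and 1.04 to 1.07 in T24R2. Without this scaling the median log2 fold change of all tested genes moved from 0.01 to 0.18, so small changes depend on it, and the split of calls moved from 4027 higher and 4282 lower to 5206 higher and 3431 lower. Of the urothelial and epithelial markers, 9 of 15 could be tested and each of the 9 was lower in T24R2, with a summed level of 5010 to 5744 CPM in T24 libraries and 3028 to 3232 in T24R2. Keratins made up most of it (KRT7 at 2242 CPM in T24), whereas KRT5, UPK1B and CDH1 had at most 6 counts in any library. Immune markers summed to at most 1.79 CPM, with 2 of 6 at 0 in all libraries, and fibroblast markers to at most 11.2. Endothelial markers summed to 225 to 278 CPM in T24 and 1.6 to 2.5 in T24R2, nearly all of it CDH5, while KDR had at most 2 counts in any library. The part of these differences in the results for the BCL2 family was not tested.

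**Figure D1:**
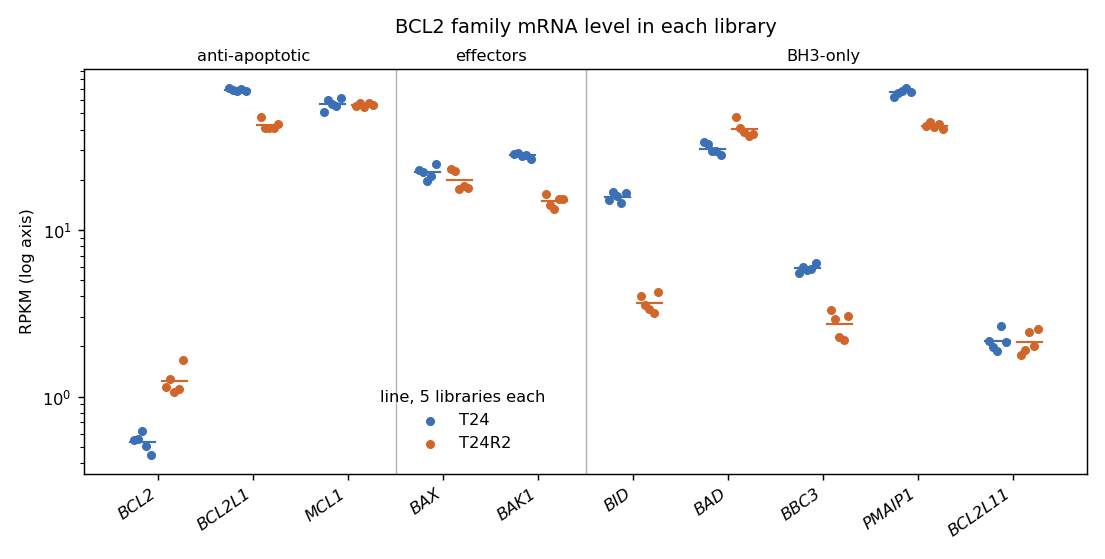
Level of each of the 10 BCL2 family members in every library, in RPKM on a log axis, with 5 T24 libraries (blue) and 5 T24R2 libraries (orange) per gene and a bar at the mean. BCL2 is lowest in both lines and higher in T24R2, BID shows the widest gap between the lines, and the 2 lines overlap for MCL1, BAX and BCL2L11.

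Among the anti-apoptotic genes, BCL2 rose from a very low level and BCL2L1 fell from a high one, while MCL1 did not differ beyond the spread of the libraries. BCL2, the founding family member and the target of BH3-mimetic drugs in blood cancers, lies on chromosome 18 (63123346 to 63320128, minus strand). In T24 replicates 1 to 5 it had 6.95, 7.05, 7.88, 6.35 and 5.62 CPM, and in T24R2 replicates 1 to 5 it had 14.4, 16, 13.4, 14 and 20.7 CPM. Every T24R2 library was above every T24 library, with the fifth T24R2 replicate the highest. The means were 6.77 ± 0.846 and 15.7 ± 2.97 CPM (SD over 5 libraries each), a 2.32-fold difference with log2 fold change 1.21 (standard error 0.14, edgeR adjusted p = 2.3e-10). These levels rest on 52 to 69 fragments in each T24 library and 140 to 211 in each T24R2 library, the fewest of any member in T24, and BCL2 also varied most between replicates of T24R2 (coefficient of variation 18.9%).

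BCL2L1, on chromosome 20 (31664452 to 31723989, minus strand), encodes BCL-XL, which restrains BAX and BAK1, and through another splice form a shorter pro-apoptotic protein. Gene counts sum these forms, as they do those of MCL1 and BCL2L11. BCL2L1 stood at 298, 292, 287, 293 and 288 CPM in T24 replicates 1 to 5, a coefficient of variation of 1.55%. T24R2 replicates 1 to 5 had 200.4, 171, 172, 172 and 183 CPM, and none of them reached the lowest T24 library. The mean fell from 291 ± 4.51 to 179.6 ± 12.6 CPM (SD, n = 5 each), or to 61.6% of T24 (log2 fold change -0.70, standard error 0.05, edgeR adjusted p = 7.1e-17).

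MCL1, on chromosome 1 (150560895 to 150579738, minus strand), encodes a short-lived anti-apoptotic protein that NOXA binds and that is set largely by protein turnover. T24 libraries had 317, 373, 355, 344 and 384 CPM and T24R2 libraries 346, 362, 339.9, 359 and 351. The T24R2 values fell inside the T24 range. Mean levels were 355 ± 25.8 and 352 ± 8.96 CPM (SD, n = 5 each), with a log2 fold change of -0.01 (standard error 0.05, edgeR adjusted p = 0.811), a value that was 0.15 without scaling.

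Both effectors execute pore formation and can stand in for each other, and of the 2, BAK1 fell while BAX was not called. BAK1, on chromosome 6 (33572547 to 33580293, minus strand), is normally anchored in the mitochondrial outer membrane. It had 63.5, 64.2, 61.8, 62.6 and 58.5 CPM in T24 replicates 1 to 5 and 36.5, 31.4, 29.6, 33.9 and 34.1 CPM in T24R2 replicates 1 to 5. The lowest T24 library was thus well above the highest T24R2 library. The mean went from 62.1 ± 2.2 to 33.1 ± 2.69 CPM (SD, n = 5 each), 53.3% of T24, with a log2 fold change of -0.91 (standard error 0.07, edgeR adjusted p = 1.6e-15).

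BAX, on chromosome 19 (48954815 to 48961798, plus strand), is mainly cytosolic until it is activated. Its T24 libraries had 59.6, 57.6, 51.0, 54.2 and 64.8 CPM and its T24R2 libraries 59.6, 58.4, 45.6, 47.4 and 46.3 CPM. Replicates 1 and 2 of T24R2 lay within the T24 range and the other 3 below it. The means of 57.4 ± 5.27 and 51.5 ± 6.94 CPM (SD, n = 5 each) gave a log2 fold change of -0.16 (standard error 0.07, edgeR adjusted p = 0.0544), which was 0.01 without scaling. An exact two-sided permutation test of BAX CPM gave p = 0.183 (n = 5 each).

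Of the BH3-only genes, BID, BBC3 and PMAIP1 fell, BAD was higher in T24R2 by less than the fold change minimum, and BCL2L11 did not differ. BID, on chromosome 22 (17734138 to 17774770, minus strand), links death receptors to mitochondria, since caspase-8 cuts the protein into its active form. It had 66.7, 75.3, 70.3, 64.5 and 73.6 CPM in T24 replicates 1 to 5 and 17.6, 15.8, 14.9, 14 and 18.7 CPM in T24R2 replicates 1 to 5. The mean dropped from 70.1 ± 4.51 to 16.2 ± 1.94 CPM (SD, n = 5 each), 23.1% of T24, a log2 fold change of -2.12 (standard error 0.08, edgeR adjusted p = 3.2e-25). This was the largest change of the 10 members, and each of the 5 T24R2 libraries was under every T24 library.

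BBC3, on chromosome 19 (47220822 to 47232766, minus strand), encodes PUMA, which binds all anti-apoptotic family proteins. Its level was 17.6, 19.0, 18.3, 18.6 and 20.3 CPM in T24 replicates 1 to 5 and 10.6, 9.28, 7.29, 6.95 and 9.64 CPM in T24R2 replicates 1 to 5. No T24R2 library reached the lowest T24 value. The mean fell from 18.8 ± 0.995 to 8.74 ± 1.55 CPM (SD, n = 5 libraries each), and the log2 fold change was -1.1 (standard error 0.12, edgeR adjusted p = 7.7e-11).

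PMAIP1, on chromosome 18 (59899996 to 59904305, plus strand), encodes NOXA, which pairs with MCL1 and promotes its degradation. It had 138, 145, 149, 156 and 147 CPM in T24 libraries and 91.8, 96.7, 91.1, 94.2 and 88.2 CPM in T24R2 libraries. The 2 sets of values were apart. The mean fell from 147 ± 6.68 to 92.4 ± 3.23 CPM (SD, n = 5 each), 62.9% of T24 (log2 fold change -0.67, standard error 0.05, edgeR adjusted p = 1.6e-15). PMAIP1 and BCL2 share the long arm of chromosome 18, where they were called in opposite directions.

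BAD, on chromosome 11 (64269830 to 64284704, minus strand), is held inactive by phosphorylation when growth factor signalling is on. It had 57.3, 55.9, 51.0, 50.8 and 47.8 CPM in T24 replicates 1 to 5 and 81.8, 69.6, 65.7, 62.5 and 63.8 CPM in T24R2 replicates 1 to 5. Each T24R2 library was above each T24 library, the first T24R2 replicate by the most. The means were 52.5 ± 3.91 and 68.7 ± 7.79 CPM (SD, n = 5 each), 131% of T24, a log2 fold change of 0.39 (standard error 0.07, edgeR adjusted p = 3.4e-06), so BAD passed the p-value threshold but not the fold change minimum. Without scaling its log2 fold change was 0.55, past that minimum.

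BCL2L11, on chromosome 2 (111119378 to 111168445, plus strand), encodes BIM, a BH3-only protein that FOXO factors induce. T24 libraries had 14.3, 13.3, 12.5, 17.7 and 14.3 CPM and T24R2 libraries 11.8, 12.7, 16.3, 13.4 and 16.9. The lines overlapped over most of their range. Its log2 fold change was -0.02 (standard error 0.12, edgeR adjusted p = 0.876), with counts of 109 to 172 per library.

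For each of the 7 members whose lines were apart, BAD included, an exact two-sided permutation test of CPM gave p = 0.00794, the lowest value it can reach with 5 libraries on each side. Any gene whose lines are apart gets this value, and 61.2% of all tested genes were apart. The test thus adds nothing to that separation. In the 10 fits that each left out 1 library, 1 member was called higher and 5 lower every time, and the log2 fold change of BID ranged from -2.16 to -2.06 and that of BCL2 from 1.1 to 1.27.

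Per kilobase of all annotated exons (RPKM), BCL2L1, PMAIP1 and MCL1 had the highest mean levels of the members and BCL2 the lowest in both lines. In T24 the order was BCL2L1 (69.4 ± 1.07 RPKM), PMAIP1 (67.2 ± 3.06), MCL1 (57.0 ± 4.15), BAD (30.8 ± 2.29), BAK1 (28.1 ± 0.993), BAX (22.2 ± 2.04), BID (15.9 ± 1.0), BBC3 (5.9 ± 0.312), BCL2L11 (2.16 ± 0.303) and BCL2 (0.537 ± 0.0671; SD, n = 5 each). Neighbours in this order did not overlap between libraries, except BCL2L1 with PMAIP1 and BAD with BAK1. In T24R2, MCL1 came first at 56.5 ± 1.44 RPKM, ahead of BCL2L1 (42.8 ± 2.99), PMAIP1 (42.3 ± 1.48) and BAD (40.2 ± 4.56), of which each overlapped the next. BAX (19.9 ± 2.68 RPKM) then stood above BAK1 (15 ± 1.22). BID (3.66 ± 0.438), BBC3 (2.74 ± 0.488) and BCL2L11 (2.14 ± 0.338) overlapped in turn, and BCL2 was last again at 1.25 ± 0.236 RPKM. The order depends on the length assumed for each gene. With the length of the canonical transcript in place of all annotated exons, a choice made after seeing the data, BCL2L1 stayed first in T24, MCL1 first in T24R2 and BCL2 last in both, while BAX moved up from rank 6 to rank 4 in T24 and BAD from rank 4 to rank 2 in T24R2, and PMAIP1 moved down from rank 3 to rank 5 in T24R2. BAX was then above BAK1 in both lines (72.3 against 28.6 RPKM in T24).

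Summed over the 3 anti-apoptotic genes, the level was 127 ± 3.36 RPKM (SD) in T24 and 101 ± 2.88 RPKM in T24R2, over 5 libraries each. BCL2 made up 0.423% of this sum in T24 and 1.24% in T24R2, so BCL2L1 and MCL1 set it, with BCL2L1 at 54.7% in T24 and 42.5% in T24R2 and MCL1 at 44.8% and 56.2%. The 2 effectors summed to 50.3 ± 1.78 RPKM in T24 and 34.9 ± 3.34 in T24R2, and the 5 BH3-only genes to 122 ± 2.27 and 91.0 ± 5.1 RPKM (SD, n = 5 each). The sums of all 3 roles were thus lower in T24R2, with library ranges apart in each. Within the BH3-only sum, the share of PMAIP1 was 55.1% in T24 and 46.5% in T24R2, that of BAD 25.3% and 44.1%, and that of BID 13.0% and 4.03%. Such shares depend on the lengths of all annotated exons. With canonical transcript lengths, BAD was above PMAIP1 in T24R2 (73.9 against 48.7 RPKM). No test is given for these sums, because the members were chosen with earlier results of these data known.

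Pro- and anti-apoptotic members were then compared within each library, as the log2 ratio of the RPKM of each of the 7 pro-apoptotic members to that of each of the 3 anti-apoptotic ones (21 ratios). Scaling between libraries does not enter these ratios. The library ranges of the lines were apart for 16 ratios, of which 14 were lower and 2 higher in T24R2. These ratios reuse the values of 10 genes and are not independent. Taken singly, 61.2% of all tested genes had the lines apart, and the share among ratios of other genes was not computed. All 7 ratios over BCL2 were among the 14 lower ones, which includes the rise of BCL2 itself. Over MCL1, whose mRNA was level, 4 of 7 ratios were lower and the other 3 overlapped between the lines.

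The ratio of BID to MCL1 went from -1.85 ± 0.06 to -3.96 ± 0.18 on the log2 scale, that of BBC3 to MCL1 from -3.27 ± 0.05 to -4.38 ± 0.27, and that of BAK1 to MCL1 from -1.02 ± 0.14 to -1.92 ± 0.12 (SD, n = 5 each). PMAIP1 was above MCL1 in each T24 library, at log2 ratios of 0.12 to 0.37, and below it in each T24R2 library, at -0.48 to -0.39. This order in T24 holds with union exon length only, since with canonical transcript lengths MCL1 was above PMAIP1 in T24 as well (89.8 against 77.3 RPKM).

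Over BCL2L1, which itself fell, the picture was mixed, with 3 ratios lower, 2 higher and 2 overlapping. BID to BCL2L1 went from -2.13 ± 0.11 to -3.55 ± 0.12, whereas BAX to BCL2L1 went from -1.65 ± 0.13 to -1.11 ± 0.17 and BAD to BCL2L1 from -1.18 ± 0.09 to -0.09 ± 0.10 (log2, SD, n = 5 each). PMAIP1 and BCL2L1 fell side by side, with log2 ratios of -0.05 ± 0.08 and -0.02 ± 0.13. BID, BAK1 and BBC3 were thus lower, with ranges apart, against all 3 anti-apoptotic genes, while BAX and BAD were higher against BCL2L1 and lower against BCL2.

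**Figure D2:**
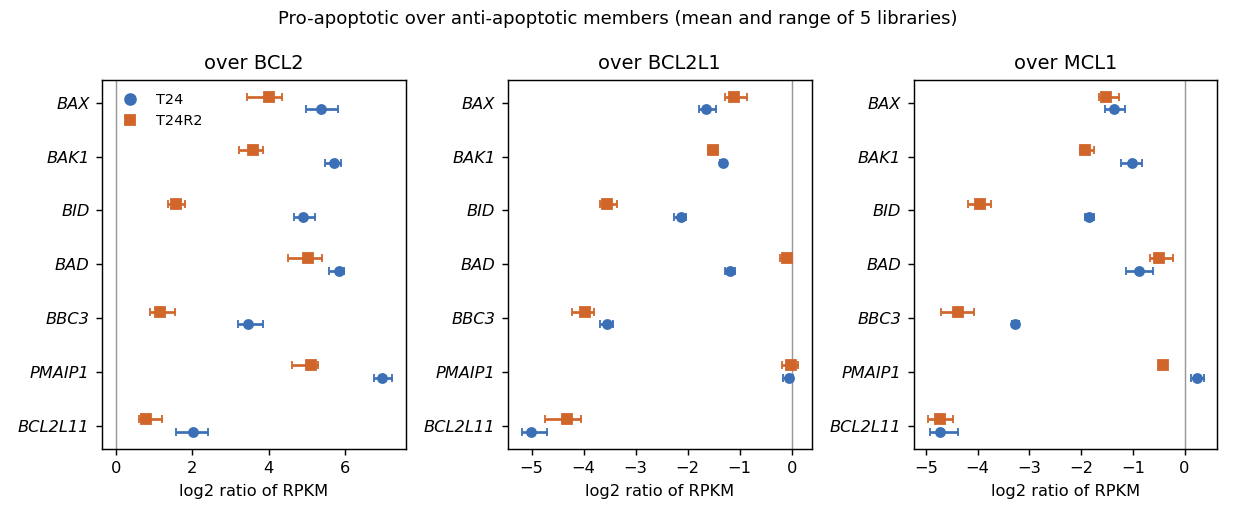
Log2 ratio of the RPKM of each pro-apoptotic member to BCL2 (left), BCL2L1 (middle) and MCL1 (right), with the mean (symbol) and the lowest and highest of 5 libraries (bars) in T24 (circles) and T24R2 (squares). All 7 ratios over BCL2 are lower in T24R2, those over BCL2L1 move both ways, and PMAIP1 over MCL1 is lower in T24R2. The position of a ratio relative to 0 depends on the gene lengths used, here those of all annotated exons.

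Genes on the opposite strand share exon bases with 6 of the 10 members, which matters here because the authors counted with strand option 1 while the library kit is not described as strand-specific. Without strand, reads of a gene and of its antisense partner cannot be told apart. BCL2L1 has 41.3% of its exon bases covered by ABALON, a long noncoding RNA annotated on the other strand, and 91.2% of ABALON lies in that overlap. ABALON had 547 counts per kilobase against 555 for BCL2L1 (means over the 10 libraries) and a log2 fold change of -0.72, next to -0.70 for BCL2L1. Subtracting every ABALON count left BCL2L1 with a log2 ratio of -0.68. With nearly equal fold changes in the 2 genes, this subtraction had to return nearly the same value. It therefore cannot show the change of BCL2L1 apart from ABALON.

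BAD shares 23.7% of its exon bases with GPR137, of whose own exon bases 10.0% lie in that overlap. GPR137 has more counts than BAD, so all of them could not be taken off. GPR137 rose from 76.2 ± 3.8 to 117 ± 7.42 CPM (SD, n = 5 libraries each), and the log2 fold change was 0.61 (edgeR adjusted p = 3e-13), and the 2 genes added together gave 0.52. BCL2L11 shares 10.9% with the noncoding MIR4435-2HG, but only 2.12% of MIR4435-2HG exon bases lie in that overlap. MIR4435-2HG had a log2 fold change of 0.30 and a mean of 477.6 counts against 143.8 for BCL2L11. The sum of both gave 0.23 in place of -0.02. Both sums took in every count of the opposite gene, most of whose exon bases lie outside the overlap. They thus do not give the change of BAD or BCL2L11 alone, and both were computed after seeing the data. For BAK1, taking off the counts of GGNBP1 (4.11% of exon bases) moved the log2 ratio from -0.91 to -0.99. MCL1 and BBC3 share 0.691% and 2.51% of exon bases with opposite genes of few counts. BCL2, BAX, BID and PMAIP1 have no opposite-strand exon overlap.

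The members' chromosomal surroundings were described by the 10 nearest tested genes on each side. Around BID, which has fewer than 10 tested genes on one side, 17 such genes had a median log2 fold change of 0.34, and 1 was called lower. BCL2L13, another family gene and its nearest tested neighbour on one side, had a log2 fold change of 0.51, so BID fell among genes that were mostly level or higher. PMAIP1 fell among 20 neighbours with a median of 0.56, 10 of them called higher and 4 lower. The 20 neighbours of BCL2 had a median of 0.57, again with 10 called higher and 4 lower. The nearest on one side, PHLPP1, was lower (log2 fold change -1.33).

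Neighbours of BAK1 had a median log2 fold change of -0.35 (8 of 20 called lower and 1 higher), with GGNBP1 at -0.58 and ITPR3 at -0.65 on either side. Those of BCL2L1 had a median of -0.18, and ID1, the nearest besides ABALON, fell by 0.66 on the log2 scale. BBC3 lay among genes with a median of 0.29, of which 1 of 20 was called lower, namely CCDC9 next to it, whose log2 fold change was -0.70. BAX has the ferritin light chain gene FTL as a neighbour, with a log2 fold change of 0.97, while its 20 neighbours had a median of -0.28. For MCL1, BAD and BCL2L11 the medians were 0.28, -0.17 and 0.12. Copy number was not measured.

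A list of 15 other BCL2 family genes was taken beside the members, of which 11 had enough counts to be tested. Of these, BMF, BCL2L13 and BNIP1 (3 genes) were called higher and BNIP3, BCL2A1, BNIP3L and BIK (4 genes) lower in T24R2, with a median log2 fold change of 0.01, equal to that of all tested genes. BMF, a BH3-only protein tied to the cytoskeleton and to loss of attachment, rose from 17.7 ± 1.95 to 50.6 ± 3.38 CPM (SD, n = 5 libraries each), and the log2 fold change was 1.52 (edgeR adjusted p = 9.8e-20). It went the opposite way to BID, BBC3 and PMAIP1. BNIP3, a mitophagy receptor induced by hypoxia, fell from 272 ± 24.1 to 77.8 ± 4.54 CPM (log2 fold change -1.81, edgeR adjusted p = 5.7e-28), and its relative BNIP3L from 162 ± 7.52 to 110.5 ± 2.52 (SD, n = 5 each).

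BCL2A1, an anti-apoptotic gene driven by NF-kB, had 38 to 68 counts in T24 libraries and at most 1 in T24R2 libraries, where it was at the floor of 3 counts per library. Against that floor its mean count was at least 15.8-fold lower in T24R2, a bound for counting error only. BCL2L2 (BCL-W), also anti-apoptotic, stayed at 46.2 ± 2.82 and 46.4 ± 4.18 CPM (SD, n = 5 each; log2 fold change 0.01). BOK, an effector-like protein related to BAX and BAK1, had a log2 fold change of 0.17 and was not called. BIK, a BH3-only gene at 8 to 25 counts in T24 and 2 to 19 in T24R2, overlapped between the lines although it was called lower. BCL2L10, HRK, BCL2L14 and BCL2L15 (4 genes) had at most 10 counts in any library and were not tested. BCL2L13 (0.51) and BNIP1 (0.52) were just past the fold change minimum and BNIP2 just short of it. BCL2L13 lost its call without T24 replicate 3 (0.50) or 5 (0.49), and BNIP1 without T24 replicate 2 (0.49) or 5 (0.47). BNIP3L (log2 fold change -0.55) was at -0.39 without scaling.

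**Figure D3:**
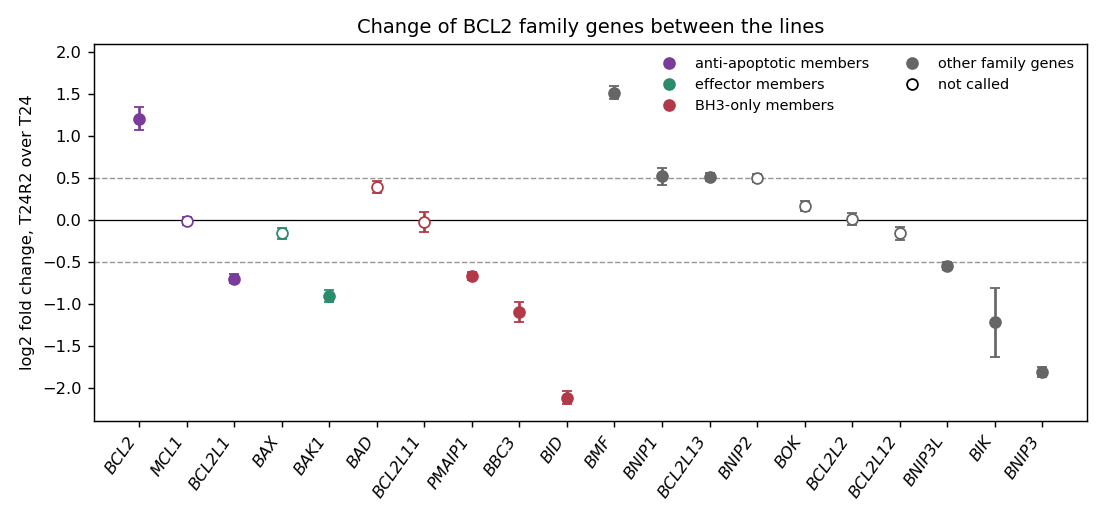
Log2 fold change of T24R2 over T24 with its standard error for the 10 members and 10 of the 11 other family genes that were tested. BCL2A1 is left out, since it had at most 1 count in T24R2. Filled symbols are called, open symbols are not, and dashed lines mark the minimum of 0.5. BID has the lowest value and BMF the highest.

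Downstream of the pore, 12 genes of the apoptosome and of execution were listed, of which 3 were called higher and 3 lower (median log2 fold change -0.27, against 0.01 for all tested genes). APAF1, the scaffold of the apoptosome, fell from 43.8 ± 3.04 to 20.8 ± 2.67 CPM (SD, n = 5 each; log2 fold change -1.07, edgeR adjusted p = 1.2e-14), and genes of the opposite strand overlap 9.67% of its exon bases. DFFA, the inhibitor of the apoptotic nuclease DFFB, fell from 143 ± 6.17 to 81.2 ± 5.88, with 10.2% of DFFA exon bases overlapped. CASP6, which encodes an executioner caspase, rose from 10.7 ± 0.961 to 17.4 ± 1.0 CPM (SD, n = 5 each). CYCS, which encodes cytochrome c, had a log2 fold change of -0.33, short of the minimum.

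Of 9 genes for outer membrane partners and for mitochondrial shape, 1 was called higher and 4 lower (median -0.48). MTCH2, the outer membrane receptor for cleaved BID, fell from 82.2 ± 4.89 to 43.9 ± 3.77 CPM (log2 fold change -0.90, edgeR adjusted p = 3.6e-16). The fusion gene MFN1 fell to 34.8 ± 2.3 CPM from 63.1 ± 4.65. The channel genes VDAC3, with a log2 fold change of -0.66, and VDAC2, which recruits BAK1 to mitochondria, with -0.52, were lower as well, though both were under the minimum without scaling (-0.49 and -0.35). VDAC2 was also under it, at -0.49, without T24R2 replicate 2. DNM1L, the fission enzyme, was the gene called higher, with a log2 fold change of 0.54.

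In the list for MCL1 and NOXA turnover, 2 of 9 genes were called higher and 5 lower (median -0.51). USP9X, a deubiquitinase that stabilizes MCL1, rose from 185 ± 14 to 338 ± 14.7 CPM (SD, n = 5 each; log2 fold change 0.87, edgeR adjusted p = 3e-19). USP13, another deubiquitinase of MCL1, went the other way, from 31.7 ± 1.0 to 16.6 ± 1.28 CPM (log2 fold change -0.93, edgeR adjusted p = 9.3e-13). MARCHF5, a mitochondrial ubiquitin ligase, fell from 69.5 ± 4.52 to 35.5 ± 1.9 CPM, with a log2 fold change of -0.97. CUL5 and RNF7, parts of a ligase that targets NOXA, had log2 fold changes of -0.74 and -0.89, and 12.7% of CUL5 exon bases have a gene opposite them. UBE2F, an enzyme that acts with RNF7 on CUL5, was called higher, at 4.64 ± 0.695 CPM in T24 and 9.4 ± 1.35 in T24R2 (edgeR adjusted p = 3.3e-07). HUWE1 and FBXW7, ligases of MCL1, had 0.10 and 0.07 and were not called.

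Among 10 transcription factors known to act on BH3-only genes, 9 were tested, 1 was called higher and 2 lower (median -0.14). TP73, which can activate BBC3 transcription, fell from 23.4 ± 2.61 to 1.72 ± 0.207 CPM (log2 fold change -3.76, edgeR adjusted p = 3.5e-24). FOXO1 fell from 44.5 ± 1.82 to 10.8 ± 1.29 CPM (SD, n = 5 libraries each; log2 fold change -2.04), whereas FOXO3 was not called (0.17). The stress response factors DDIT3 and ATF3 were not called, with log2 fold changes of -0.14 and -0.10. None of these lists was tested as a set, and calls in either direction were frequent throughout, at the shares of all genes given above.

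**Figure D4:**
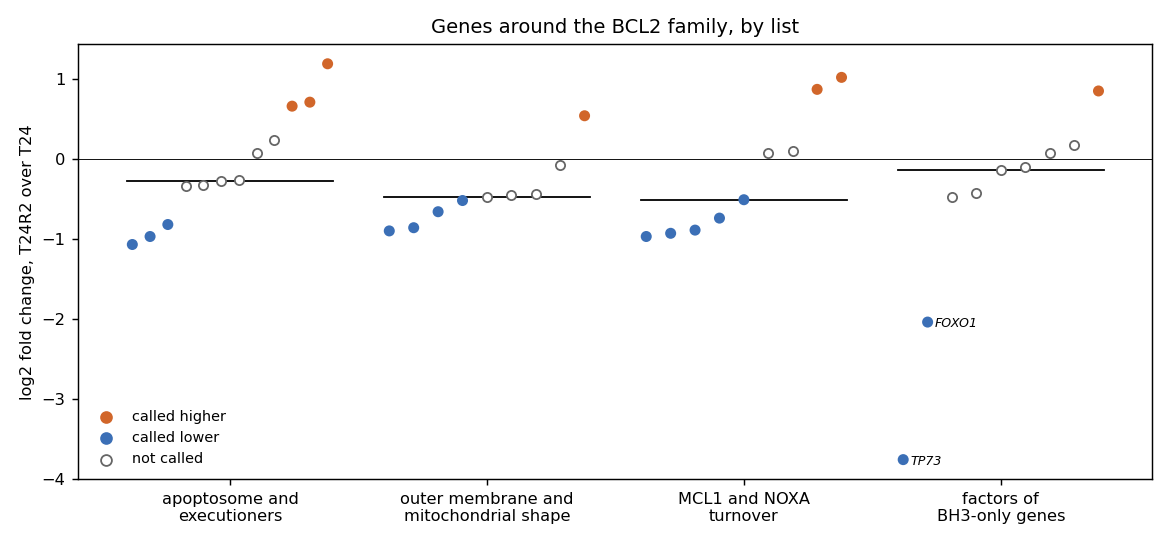
Log2 fold change of T24R2 over T24 for each tested gene of 4 lists around the BCL2 family, sorted within each list, with the list median as a line. Orange points are called higher, blue points lower and open points not called. TP73, at -3.76, and FOXO1, at -2.04, have the lowest values.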

How the data were processed

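RNA-seq libraries of T24 and T24R2 (5 each) were used. The authors aligned reads to hg38 with STAR 2.7.0, used SAMtools 1.10 to keep uniquely mapped, non-duplicate reads, and ran featureCounts 2.0.1 in paired mode (strand option 1) on GENCODE release 39. The deposited values are raw counts per gene. Duplicate removal may lower the counts of abundant transcripts, and reads that fit several genes were not counted. From these, T24R2 was compared with T24 with edgeR 4.0.16 in R 4.3.3 (filterByExpr, TMM, glmQLFit, glmQLFTest) over 16181 genes with Benjamini-Hochberg adjustment. Standard errors were taken from the fold change and its F statistic. Symbols were matched by Ensembl identifier for 61369 of 61533 genes, and no row lacked an identifier (0 rows).

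RPKM used union exon lengths. Exon overlaps were computed with bedtools 2.31.1. BH3 stretches were found by translating the canonical transcripts of GENCODE release 44 and searching for the motif. The search itself required the leucine, the aspartate and a glycine, alanine or serine before it, and limited some other residues. The members and gene lists were chosen with earlier results of these data known. Named genes are the members, the other family genes, up to 4 called genes with the smallest adjusted p in each other list, called neighbours and opposite-strand genes. BCL2L2, BOK, CYCS, DNM1L, HUWE1, FBXW7, USP13, UBE2F, FOXO3, DDIT3, ATF3, KRT7, KRT5, UPK1B, CDH1, CDH5 and KDR were named after their values were seen. Some listed genes and 1 of the 6 lists are not reported here.

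Alternatives were other scalings, DESeq2 1.42.0 with and without shrinkage, limma-voom (limma 3.58.1), other count filters and thresholds, removal of mitochondrial genes, a replicate block and leaving out each library. In simulated counts with 200 of 16181 genes changed, 196 changed genes passed the filter and edgeR called 189 of them and 2 unchanged genes. With nothing changed it called 1. The simulation changed far fewer genes than the 51.4% called in the data, in equal numbers up and down. It therefore does not give the error rates of the calls reported here. Replicates were distinct libraries (chi-square per degree of freedom 1.99 to 6.51 between pairs).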

Additional observations from a re-analysis of the deposited data

Results flagged for a closer look

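In each line, the gap between the most extreme replicate and the next was compared with the range of the 5 replicates, for the members and the genes named from the lists (80 sets of 5 values). Chance alone gives about 1 in 20, or 4, and 2 sets were found. BCL2A1 had 0.08669 CPM in T24R2 replicate 2, which is 1 count, against 0 in the other T24R2 libraries. FOXO1 had 47.64 CPM in T24 replicate 1, against 43.2 to 44.4 in the other T24 libraries. None of the 10 BCL2 family members was found this way in either line.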

How the results depend on the processing

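The counts of 1 member called higher and 5 lower held with upper-quartile scaling, DESeq2 with and without shrinkage, limma-voom, both other count filters, without mitochondrial genes and in the 10 fits leaving out 1 library. Without scaling, 2 were called higher, since BAD reached 0.55. At an adjusted p under 0.05 alone 2 were higher, and at an absolute log2 fold change over 1, 2 were lower. Among uncalled members the sign changed under some settings for MCL1, BCL2L11 and BAX, whereas BAD stayed higher in T24R2 throughout. MCL1 went from -0.01 to 0.15 without scaling, 0.06 with upper-quartile scaling, 0.02 when tested genes needed a mean count of 100 and 0.01 with ADAMTSL4 counts taken off, and ranged from -0.06 to 0.01 with 1 library left out. BCL2L11 went from -0.02 to 0.14, 0.05 and 0.01 under the first 3 of these, and ranged from -0.08 to 0.06 with 1 library left out. Its sum with MIR4435-2HG, which holds most of the counts in that sum, gave 0.23. BAX, at -0.16, was 0.01 without scaling. BCL2L12 was also 0.01 without scaling, and BCL2L2 ranged from -0.02 to 0.07 with 1 library left out.

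Over all tested genes, 4027 were called higher and 4282 lower, 2350 and 2641 with the mean count of 100 required (fewer genes tested), 6128 higher at an adjusted p under 0.05 alone, and 1918 and 2293 at an absolute log2 fold change over 1. Over the 80 other listed genes, 18 higher and 29 lower became 7 and 15 at that last threshold. Same-numbered libraries showed no shared deviation, with correlations of -0.0198 to 0.0214. This cannot show whether they were handled together, which the labels do not say. With the replicate number as a block, 1 member was higher and 5 lower, and 3979 genes were higher and 4261 lower. The log2 fold change of BAX then had an edgeR adjusted p = 0.0294, still short of the fold change minimum. The difference between the lines in each of the 21 log2 ratios moved by less than 1 SD with 1 library left out. Gene length shifts a ratio equally in both lines, so it sets the ratio's level and cannot change that difference. The causes of these shifts were not tested, beyond the fewer genes tested above. Depth limits BCL2, BCL2L11 and BBC3 most among the members.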
